A study of Mus musculus with 15 samples.

Results

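The expression of 8 regulators of cytokine mRNA decay was described in primary lung fibroblasts, out of 18078 genes measured. They were chosen by gene name: the endoribonuclease gene Zc3h12a (Regnase-1), the roquin genes Rc3h1 and Rc3h2, Arid5a, the tristetraprolin (TTP) family genes Zfp36, Zfp36l1 and Zfp36l2, and Elavl1 (HuR). Each name matched 1 gene, and all 8 genes reached 1 TPM or more in all 15 libraries. The cells were cultured lung fibroblasts of wild-type mice of the BALB/cJ strain, and all groups were sampled at 20 h. The 5 groups of 3 libraries were untreated cells, cells given recombinant IL-33, cells given IL-33 and IL-17A, cells given IL-33 and IL-13, and cells given all 3 cytokines, called the triple combination here. Damaged barrier cells release the alarmin IL-33, T helper and innate lymphoid cells of the type 3 kind secrete IL-17A, and those of the type 2 kind secrete IL-13, whose receptor uses STAT6. No group received IL-17A or IL-13 without IL-33.

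Messenger RNAs of cytokines and chemokines are short-lived because proteins bind elements in their 3′ untranslated regions (UTRs) and recruit or act as nucleases. Regnase-1 cuts stem-loop structures, and the roquins bind similar stem-loops and recruit the CCR4-NOT deadenylase. Proteins of the TTP family bind AU-rich elements and recruit the same deadenylase, whereas HuR and Arid5a can bind and stabilise such mRNAs. In IL-17 signalling, kinases recruited by the adaptor Act1 phosphorylate Regnase-1 protein, and the p38 and MK2 kinases phosphorylate TTP. Transcript levels, measured here, do not report those protein modifications or mRNA half-lives.

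The cells' identity was checked first. Of 14 fibroblast markers, 14 had a mean of 1 TPM or more, with a median of 252 TPM and led by Col1a1 at 4658 TPM, and of 14 macrophage markers 14 did, with a median of 165 TPM and led by Lyz2 at 9363 TPM. TPM is a read number divided by gene length and scaled to the library's total. Here that length is the whole gene span with introns, so levels of different genes and marker lists are not directly comparable. The summed macrophage markers lay between 16226 and 18572 TPM over all libraries, so the cultures cannot be taken as fibroblasts alone. That sum is led by Lyz2 and does not follow each marker. In the triple combination against untreated, limma (described below) called 3 of the 14 macrophage markers higher and 8 lower (12.6% and 30.1% of all genes). Summed fibroblast markers lay between 14045 and 15403 TPM in untreated libraries and between 9367 and 9971 TPM in the triple combination. Smooth muscle and pericyte markers lay between 2741 and 2846 TPM and between 546 and 581 TPM in the same groups. Summed epithelial markers did not exceed 8.43 TPM, endothelial markers 7.93 TPM and lymphocyte markers 11.1 TPM. Neutrophil markers, of which 2 genes had a mean of 1 TPM or more, lay between 22.0 and 29.1 TPM in untreated libraries. They lay between 115 and 154 TPM in the triple combination. For mast cell and basophil markers, with 1 such gene, these ranges were 83.5 to 92.1 TPM and 133 to 157 TPM. In bulk libraries, fewer cells of a type and less RNA per cell cannot be told apart, and the part of these shifts in the results below was not tested. A second difference concerns 6 libraries, namely the IL-33 and IL-13 group, the IL-33 and IL-17A libraries numbered 2 and 3, and the triple combination library numbered 1. Their 13 mitochondrially encoded genes held 3.50% to 3.87% of the TPM, against 4.77% to 6.13% in the other 9. This low mitochondrial set is partly confounded with IL-13, and regulator results that depend on it are given with and without it. Outside it, the IL-33 and IL-17A group keeps replicate 1 only, so those libraries give no spread for that group. For comparisons with that group only the change is printed, and a call lost there cannot be told apart from the loss of libraries.

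The regulators' own transcripts carry elements of the kinds these proteins bind, and those sequences are shown because the transcripts are compared with other carriers below. The 3′ UTR of the longest protein-coding transcript (GENCODE vM21, build mm10) was searched on the transcript's strand for hairpins. These were defined as 6 Watson-Crick pairs closing a loop of 3 bases that reads pyrimidine, purine, pyrimidine. The loop pattern is the one described for Regnase-1 and roquin targets. The stem rule allowed no other pair and no mismatch, so hairpins with a looser or shorter stem were missed. Of 11809 tested genes with a 3′ UTR, 9.71% had at least 1 such hairpin and 0.999% at least 2. Zc3h12a had 3, Rc3h1 had 4, of which a pair overlapped, and Rc3h2 had 1. Il6, Arid5a and the TTP family genes had no match under this rule, which does not show that they lack a stem-loop. The capitals mark the loop, and each hairpin is written 5′ to 3′.
Zc3h12a, chr4:125119069-125119083, minus strand: gatacaCATtgtatc
Zc3h12a, chr4:125118887-125118901, minus strand: aggcacCATgtgcct
Zc3h12a, chr4:125118663-125118677, minus strand: tttaaaTATtttaaa
Rc3h1, chr1:160971660-160971674, plus strand: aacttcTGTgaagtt
Rc3h2, chr2:37373809-37373823, minus strand: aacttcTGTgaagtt
Nfkbiz, chr16:55812614-55812628, minus strand: tgtttcTATgaaaca
Nfkbiz, chr16:55812586-55812600, minus strand: cactatTATatagtg

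The same 15-base hairpin thus stood in the 3′ UTRs of both roquin genes, and in those of no other gene among the 11809. Nfkbiz, which encodes the NF-kB cofactor IkB-zeta and is a known Regnase-1 target, had 2. A match describes the letters only and does not show binding or folding.

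The AU-rich heptamer TATTTAT, which contains ATTTA, was searched on the same strand. It stood at least once in 30.0% of the 11809 UTRs and at least 2 times in 10.5%. Zfp36, Zfp36l1, Zfp36l2 and Rc3h2 had 3 each, Rc3h1 had 2, Elavl1 had 8, several of them overlapping, and Zc3h12a and Arid5a had none. UTR length differs, from 774 bases in Zfp36 to 7181 in Rc3h1, and longer UTRs hold more chance matches. Shown are the 3 matches of Zfp36 (tristetraprolin itself) and the single match of Il6, with the heptamer in capitals.
Zfp36, chr7:28376966-28376994, minus strand: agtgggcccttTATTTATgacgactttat
Zfp36, chr7:28376951-28376979, minus strand: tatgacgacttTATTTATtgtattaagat
Zfp36, chr7:28376926-28376954, minus strand: agattttatagTATTTATatatattgggt
Il6, chr5:30019728-30019756, plus strand: tttatgattgaTATTTATtatttttatga

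Zc3h12a was the regulator that moved most. The gene (ENSMUSG00000042677, chr4:125118423-125127840, minus strand, mm10) was at 14.7, 13.2 and 12.8 TPM in replicates 1, 2 and 3 of untreated cells. IL-33 raised it to 72.0, 72.9 and 70.7 TPM. With IL-17A added to IL-33 it reached 266, 251 and 264 TPM. With IL-13 added instead, it was at 108, 109 and 110 TPM. The triple combination held 311, 281 and 277 TPM. No library of any group overlapped with another group, and the order from low to high was untreated, IL-33, IL-33 with IL-13, IL-33 with IL-17A, triple combination. How many of all genes show groups without overlap was not counted, here or below. Group means over the untreated mean were 5.30-fold for IL-33, 8.06-fold for IL-33 with IL-13, 19.2-fold for IL-33 with IL-17A and 21.4-fold for the triple combination. The values rest on 110 to 3405 reads per library.

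**Figure D1:**
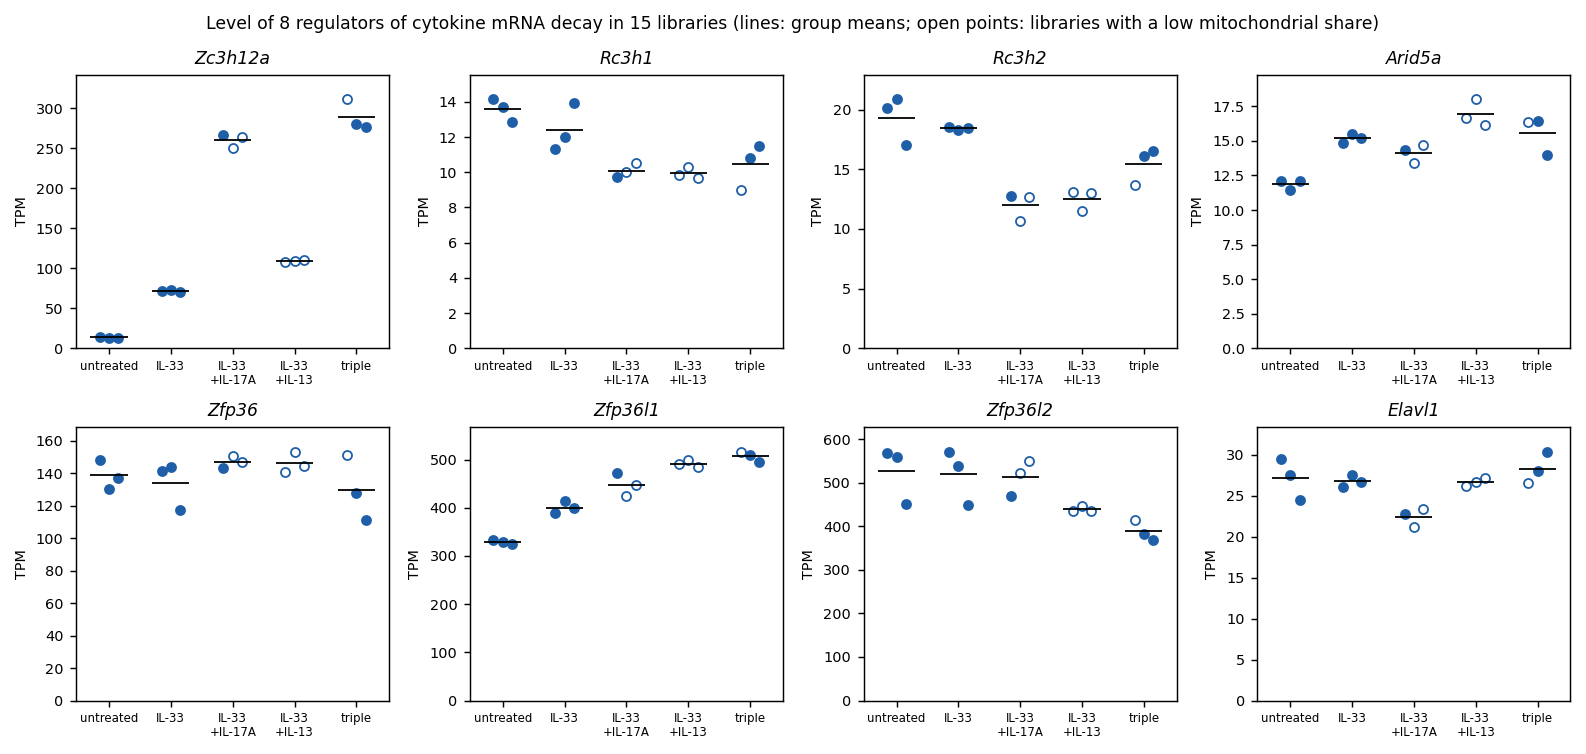
TPM of each regulator (vertical axis, starting at 0) in the 15 libraries by group, with points for libraries, a line for the group mean of 3, and open points for the 6 libraries with a low mitochondrial share. Zc3h12a climbs from 12.8 to 14.7 TPM in untreated cells to between 277 and 311 TPM in the triple combination, while Zfp36 lies between 111 and 153 TPM in all groups.

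The changes of Zc3h12a were tested with limma on log2(TPM + 1) over 13887 genes with Benjamini-Hochberg adjustment, and adjusted p-values below 0.05 counted as calls. The log2 scale with 1 TPM added understates changes of low genes. IL-33 raised Zc3h12a by 2.33 ± 0.05 (log2 change ± SE, adjusted p = 1.0e-11). IL-17A added to IL-33 raised it by a further 1.84 ± 0.05 (adjusted p = 7.6e-10), and IL-13 added to IL-33 by 0.60 ± 0.05 (adjusted p = 6.9e-06). In cells that already had IL-33 and IL-13, IL-17A raised it by 1.40 ± 0.05 (adjusted p = 1.6e-08). In cells that had IL-33 and IL-17A, the change with IL-13 was 0.15 ± 0.05 and was not called (adjusted p = 0.073). On log2 values of recovered reads scaled to library size this change was 0.17 and was called (adjusted p = 0.016). The triple combination was above untreated by 4.32 ± 0.05 (adjusted p = 8.3e-15). These 5 calls of Zc3h12a held under all alternatives tried. Nothing in the labels says that replicates came from separate cultures or animals, so all p-values here reflect library-to-library spread that may be technical only.

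The roquin genes were lower in the cytokine combinations. Rc3h2 (ENSMUSG00000075376, chr2:37370069-37422903, minus strand), which encodes roquin-2, was at 20.1, 20.9 and 17.0 TPM in untreated cells and at 18.6, 18.3 and 18.5 TPM with IL-33. It was at 12.8, 10.7 and 12.7 TPM with IL-33 and IL-17A, and at 13.1, 11.5 and 13.0 TPM with IL-33 and IL-13. In the triple combination it was at 13.6, 16.1 and 16.5 TPM. Both double combinations thus lay below all IL-33 libraries, and the triple combination lay above both and below IL-33 alone, without overlap. IL-17A lowered Rc3h2 under IL-33 (log2 change -0.58 ± 0.09, adjusted p = 0.0015), and so did IL-13 (-0.52 ± 0.09, adjusted p = 0.0014). IL-13 added to IL-33 and IL-17A raised it (0.33 ± 0.09, adjusted p = 0.028), and the triple combination was below untreated (-0.31 ± 0.09, adjusted p = 0.018). The IL-13 call was lost with a term for the low mitochondrial set (-0.34, adjusted p = 0.095). The IL-17A call was lost when only libraries outside that set were used (-0.50), with replicate 1 alone left of IL-33 and IL-17A.

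Some Rc3h2 calls were lost when any 1 of several libraries was left out. The rise with IL-13 on top of IL-33 and IL-17A had an adjusted p of 0.11 without IL-33 and IL-17A replicate 2 (log2 change 0.26), 0.10 without triple combination replicate 2 (0.30) and 0.11 without its replicate 3 (0.28). It also lost its call when only the groups compared were fitted (0.33, adjusted p = 0.13). With only libraries outside the low mitochondrial set this rise was 0.33. The fall in the triple combination against untreated had an adjusted p of 0.060 without untreated replicate 1 (-0.28), 0.073 without untreated replicate 2 (-0.25) and 0.078 without triple combination replicate 1 (-0.22). With median-ratio scaling, which sets the typical gene to no change, this fall was -0.18 (adjusted p = 0.13). It was -0.19 on recovered reads (adjusted p = 0.062), -0.31 when only the groups compared were fitted (adjusted p = 0.066) and -0.22 with only libraries outside the low mitochondrial set (adjusted p = 0.071).

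Rc3h1 (ENSMUSG00000040423, chr1:160906418-160974978, plus strand), which encodes roquin-1, showed a smaller shift. Its untreated values were 14.1, 13.7 and 12.9 TPM, and with IL-33 they were 11.3, 12.02 and 13.9 TPM. The double combinations held 9.72, 10.004 and 10.5 TPM with IL-17A and 9.85, 10.3 and 9.70 TPM with IL-13. In the triple combination the gene was at 8.99, 10.8 and 11.5 TPM. The 3 combination groups overlapped with each other, and all their libraries lay below all untreated ones. IL-13 lowered Rc3h1 under IL-33 (log2 change -0.29 ± 0.09, adjusted p = 0.022), and the triple combination was below untreated (-0.35 ± 0.09, adjusted p = 0.0051). The change with IL-17A, -0.27 ± 0.09, was not called (adjusted p = 0.068), but passed on recovered reads (-0.24, adjusted p = 0.043) and without IL-33 replicate 1 (-0.33, adjusted p = 0.0497). The IL-13 call was lost with the term for the low mitochondrial set (-0.18, adjusted p = 0.42), with median-ratio scaling (-0.20, adjusted p = 0.066), without IL-33 replicate 3 (-0.21, adjusted p = 0.094), and without replicate 1 (-0.28, adjusted p = 0.061) or 3 (-0.27, adjusted p = 0.065) of IL-33 and IL-13. Using only libraries outside the low mitochondrial set, the triple combination differed from untreated by -0.26 (adjusted p = 0.058).

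Arid5a (ENSMUSG00000037447, chr1:36307733-36324029, plus strand), whose product binds and stabilises Il6 mRNA and counteracts Regnase-1, was at 12.1, 11.5 and 12.1 TPM in untreated cells. With IL-33 it was at 14.8, 15.5 and 15.2 TPM. It held 14.3, 13.4 and 14.7 TPM with IL-17A added, 16.6, 18.0 and 16.2 TPM with IL-13 added, and 16.4, 16.4 and 13.9 TPM in the triple combination. All 12 libraries with cytokines lay above the 3 untreated ones. IL-33 raised Arid5a by 0.33 ± 0.06 (adjusted p = 0.0036), and the triple combination was above untreated by 0.36 ± 0.06 (adjusted p = 0.00062). The change with IL-17A under IL-33, -0.10 ± 0.06, was not called (adjusted p = 0.35), nor was that with IL-13, 0.15 ± 0.06 (adjusted p = 0.094). The latter passed with median-ratio scaling (0.24, adjusted p = 0.020) and on recovered reads (0.24, adjusted p = 0.025). IL-13 added to IL-33 and IL-17A changed Arid5a by 0.13 ± 0.06, which was not called (adjusted p = 0.21) but passed without triple combination replicate 3 (0.20, adjusted p = 0.039).

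In the TTP family, Zfp36 itself was not called in any of the 7 comparisons by limma, and 1 of them, the interaction described below, had an unadjusted p under 0.05. The gene (ENSMUSG00000044786, chr7:28376784-28380253, minus strand) encodes TTP, the founding AU-rich element binding protein of the family. It was at 148, 130 and 137 TPM in untreated cells, 141, 144 and 117 TPM with IL-33, and 143, 150 and 147 TPM with IL-33 and IL-17A. With IL-33 and IL-13 it was at 141, 153 and 144 TPM, and in the triple combination at 151, 127 and 111 TPM. Every group overlapped with its neighbour in the order of the means. The log2 change with IL-33 was -0.05 with a 95% confidence interval of -0.27 to 0.17, and that of the triple combination against untreated was -0.10 with an interval of -0.32 to 0.12. Without triple combination replicate 1, which was the highest of its group, the change with IL-13 on top of IL-33 and IL-17A was -0.30 and passed (adjusted p = 0.037), against -0.19 with it.

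Zfp36l1 (ENSMUSG00000021127, chr12:80107754-80113013, minus strand), a paralogue with the same tandem zinc fingers, rose in steps. It was at 334, 328 and 324 TPM in untreated cells and at 389, 413 and 399 TPM with IL-33. The values were 473, 424 and 448 TPM with IL-17A added and 490, 500 and 485 TPM with IL-13 added. The triple combination held 516, 509 and 494 TPM. Only the last of these groups overlapped with the one before it. IL-33 raised Zfp36l1 by 0.28 ± 0.04 (adjusted p = 0.00028), IL-13 added to IL-33 by 0.30 ± 0.04 (adjusted p = 0.00017), and the triple combination was above untreated by 0.62 ± 0.04 (adjusted p = 5.7e-08). The further change with IL-17A under IL-33 was 0.16 ± 0.04 (adjusted p = 0.020). It lost its call without IL-33 replicate 1 (0.14, adjusted p = 0.076) or 3 (0.16, adjusted p = 0.061), without IL-33 and IL-17A replicate 3 (0.16, adjusted p = 0.065), and when only the groups compared were fitted (0.16, adjusted p = 0.19). IL-13 added to IL-33 and IL-17A raised it by 0.18 ± 0.04 (adjusted p = 0.0079). This change was 0.09 with only libraries outside the low mitochondrial set. When only the groups compared were fitted, it was 0.18 (adjusted p = 0.12).

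Zfp36l2 (ENSMUSG00000045817, chr17:84183931-84187947, minus strand), the other close paralogue, was lowest in the groups with IL-13. It was at 570, 560 and 451 TPM in untreated cells, 571, 538 and 450 TPM with IL-33, and 470, 523 and 550 TPM with IL-33 and IL-17A. These 3 groups overlapped. With IL-33 and IL-13 it was at 435, 447 and 436 TPM, and in the triple combination at 415, 382 and 368 TPM, below all other libraries. The triple combination was below untreated by a log2 change of -0.43 ± 0.10 (adjusted p = 0.0041), a call lost with median-ratio scaling (-0.30, adjusted p = 0.076). IL-13 added to IL-33 and IL-17A lowered it by a log2 change of -0.40 ± 0.10 (adjusted p = 0.017). That call was lost without IL-33 and IL-17A replicate 2 (-0.39, adjusted p = 0.053) or 3 (-0.35, adjusted p = 0.071). It was also lost without triple combination replicate 2 (-0.39, adjusted p = 0.058) or 3 (-0.37, adjusted p = 0.069). With only libraries outside the low mitochondrial set the change in Zfp36l2 was -0.33. IL-13 added to IL-33 changed it by -0.24 ± 0.10, which was not called (adjusted p = 0.093) but passed without IL-33 replicate 3 (-0.34, adjusted p = 0.030).

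Elavl1 (ENSMUSG00000040028, chr8:4285382-4325413, minus strand), the gene of the ubiquitous mRNA-stabilising protein HuR, was at 21.1 to 30.4 TPM over all libraries. It was at 29.5, 27.5 and 24.4 TPM in untreated cells, 26.1, 27.5 and 26.7 TPM with IL-33, and 26.2, 26.7 and 27.1 TPM with IL-33 and IL-13. The libraries with IL-33 and IL-17A were the lowest of all, at 22.7, 21.1 and 23.4 TPM, and the triple combination held 26.5, 28.1 and 30.4 TPM. IL-17A lowered Elavl1 under IL-33 (-0.25 ± 0.07, adjusted p = 0.036), and IL-13 added to IL-33 and IL-17A raised it (0.32 ± 0.07, adjusted p = 0.0059). The first call was lost in 9 of the 15 alternatives. Its adjusted p was 0.0565 to 0.15 when 1 of 5 libraries was left out (any IL-33 library, or replicate 2 or 3 of IL-33 and IL-17A), with log2 values of -0.21 to -0.28. The change was -0.19 with the term for the low mitochondrial set (adjusted p = 0.24) and -0.23 with only libraries outside it. It was -0.25 when only the groups compared were fitted (adjusted p = 0.082) and -0.19 with median-ratio scaling (adjusted p = 0.12). The second was 0.32 when only the groups compared were fitted (adjusted p = 0.058) and 0.35 with only libraries outside the low mitochondrial set. The triple combination differed from untreated by 0.06 ± 0.07, which was not called (adjusted p = 0.49) but passed with median-ratio scaling (0.19, adjusted p = 0.045) and on recovered reads (0.19, adjusted p = 0.020).

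Strand use in counting is not given in the sources used here, so reads of genes on the opposite strand could add to 4 of the regulators. Zfp36 overlaps the antisense gene Gm44710, Zfp36l1 the long non-coding gene Gm26669, Zfp36l2 the antisense gene AC132455.1, and Elavl1 the chemokine gene Ccl25. Rc3h1 overlaps 3 unclassified transcripts and Rc3h2 a small nucleolar RNA gene, all on their own strand.

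Read against all genes, the number of regulators called depended on the comparison. IL-33 against untreated called 3 of 8 regulators, all higher, where 14.2% of the genes tested were called (5.92% higher, 8.28% lower). IL-17A added to IL-33 called 4 regulators, 2 higher and 2 lower, against 9.76% of all genes (3.54% higher, 6.22% lower). IL-13 added to IL-33 also called 4, 2 higher and 2 lower, against 32.4% (10% higher, 22.4% lower), a share that leaves less contrast with the background. In the presence of IL-33 and IL-13, IL-17A called 1, higher, against 7.45% (3.40% higher, 4.05% lower). Without IL-33 and IL-17A replicate 1 the share of all genes called with IL-17A added to IL-33 was 22% (4 regulators), and without triple combination replicate 1 that with IL-17A added to IL-33 and IL-13 was 14.1% (2 regulators). With IL-33 and IL-17A present, IL-13 called 4, 3 higher and 1 lower, against 15.8% (6.70% higher, 9.14% lower). With only libraries outside the low mitochondrial set, replicate 1 alone stands for IL-33 and IL-17A, so no counts are given there. The triple combination against untreated called 6, 3 higher and 3 lower, against 42.7% (12.6% higher, 30.1% lower), and it shares its untreated libraries with the IL-33 comparison. The median log2 change of the 8, with that of all genes beside it, was -0.02 and -0.05 for IL-33, -0.05 and -0.05 for IL-17A added to IL-33, and 0.06 and -0.08 for IL-13 added to IL-33. It was 0.05 and 0.01 for IL-17A added to IL-33 and IL-13, 0.14 and -0.02 for IL-13 added to IL-33 and IL-17A, and -0.02 and -0.10 for the triple combination. Since members moved both ways, these medians are given as values only. Median-ratio scaling moved the median of all genes in the triple combination from -0.10 to 0.01 and that of the 8 from -0.02 to 0.11, and the calls over all genes from 1755 higher and 4178 lower to 2839 and 2572. For IL-33 the split went from 822 and 1150 to 1109 and 853, and for IL-13 added to IL-33 from 1395 and 3111 to 2306 and 2048.

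**Figure D2:**
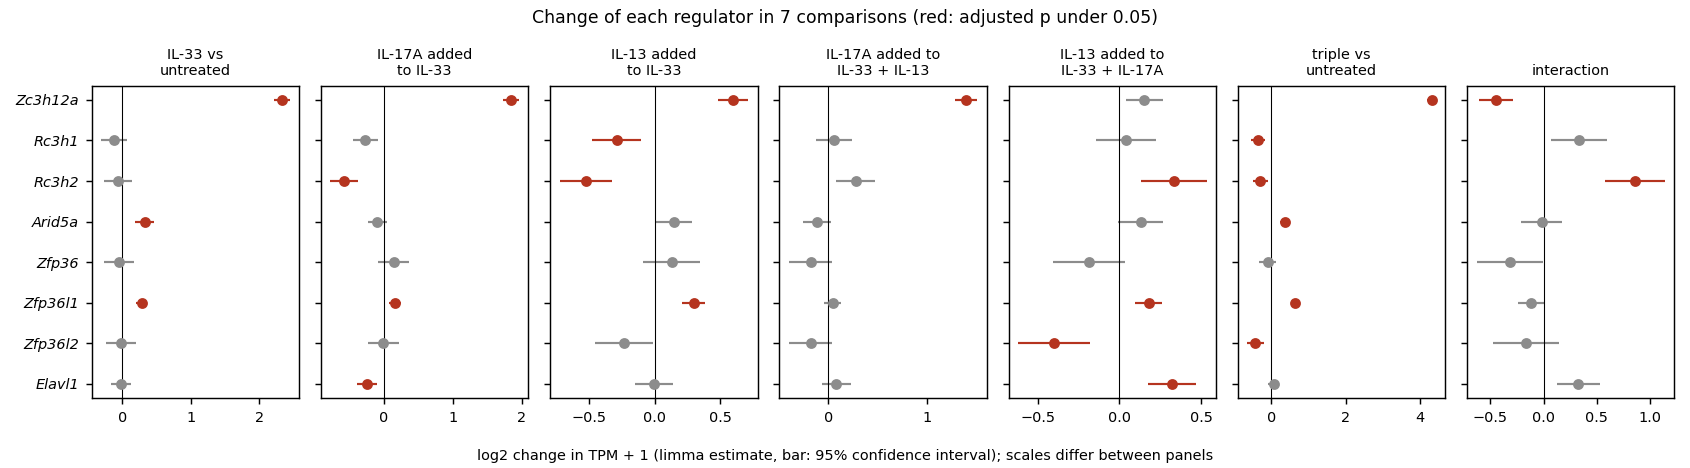
Log2 change in TPM + 1 of each regulator (limma estimate, horizontal axis, with 95% confidence interval) in the 7 comparisons, on scales that differ between panels, with called changes in red. Zc3h12a is called higher in 5 comparisons, from 0.60 to 4.32, and Rc3h2 moves from -0.58 with IL-17A to 0.86 in the interaction.

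Whether IL-17A acted alike with and without IL-13 was asked by an interaction term, the effect of IL-17A under IL-33 and IL-13 minus its effect under IL-33. Of all genes, 0.338% were called (0.158% higher, 0.180% lower), and of the regulators 1 was called higher and 1 lower. That background depended on the fit. It was 21.9% without IL-33 and IL-17A replicate 1, 16.4% without triple combination replicate 1, 10.1% on recovered reads and 0.0144% with the term for the low mitochondrial set, and at most 0.698% in the other alternatives. For Zc3h12a the interaction was -0.45 ± 0.07 (adjusted p = 0.029), a rise of 1.40 with IL-13 against 1.84 without. For Rc3h2 it was 0.86 ± 0.13 (adjusted p = 0.016), from a change of 0.28 with IL-13, which was not called (adjusted p = 0.092), against a fall of 0.58 without. The change with IL-13 passed on recovered reads (0.29, adjusted p = 0.028) and without triple combination replicate 1 (0.36, adjusted p = 0.027). Rc3h1 (0.33 ± 0.12, adjusted p = 0.12) and Elavl1 (0.33 ± 0.09, adjusted p = 0.089) were not called.

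Both interaction calls were lost in part of the alternatives. With the term for the low mitochondrial set they were -0.37 for Zc3h12a (adjusted p = 0.64) and 0.61 for Rc3h2 (adjusted p = 0.59). The Zc3h12a call was lost when any of 10 of the 12 libraries was left out, with log2 values of -0.41 to -0.47 and adjusted p of 0.054 to 0.093. It held without replicate 1 of IL-33 and IL-17A and without replicate 1 of the triple combination. The Rc3h2 call was lost without IL-33 replicate 2 (0.86, adjusted p = 0.055), without IL-33 and IL-13 replicate 2 (0.80, adjusted p = 0.057), and without replicate 2 (0.82, adjusted p = 0.065) or 3 (0.81, adjusted p = 0.058) of the triple combination. Without triple combination replicate 1, where 16.4% of all genes were called, 5 regulators passed, Rc3h1 (0.43, adjusted p = 0.024), Elavl1 (0.37, adjusted p = 0.028) and Zfp36 (-0.43, adjusted p = 0.036) in addition. Without IL-33 and IL-17A replicate 1, where 21.9% were called, Elavl1 passed in addition (0.34, adjusted p = 0.039).

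**Figure D3:**
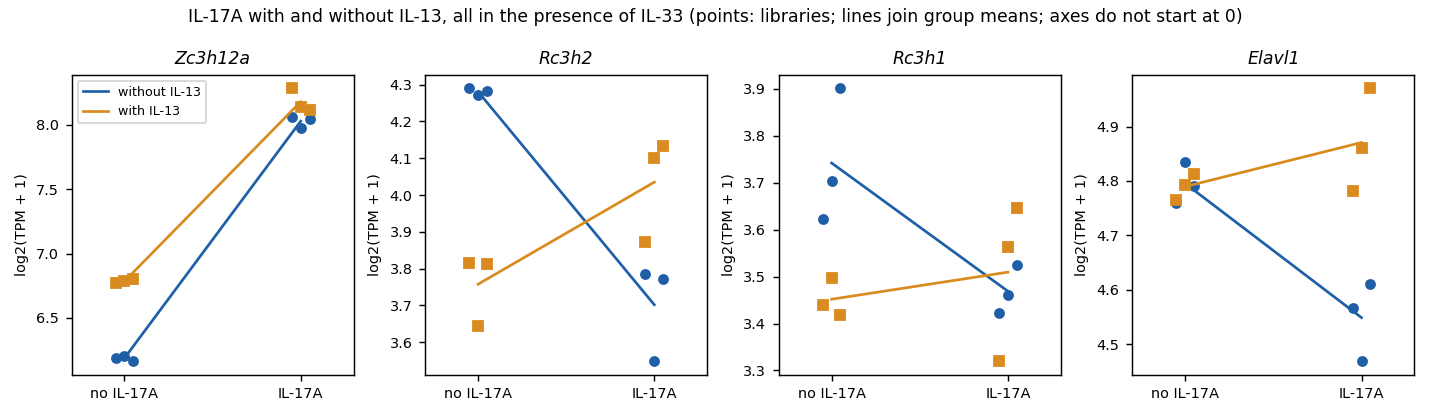
Log2(TPM + 1) of 4 regulators without and with IL-17A, in cells with IL-33 alone (circles) and with IL-33 and IL-13 (squares), where points are libraries, lines join means of 3, and axes do not start at 0. The Zc3h12a lines converge (1.84 against 1.40), and the Rc3h2 lines cross (-0.58 against 0.28).

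To compare the regulators with each other, reads were divided by exon length and scaled so that all genes of a library sum to the same total, since TPM here divides by the whole gene span. Whether reads in introns were counted is not given, so the order below is approximate. For Zfp36 the exon length used was its whole span of 3470 bases, against 14.5% of the span for Elavl1. The reads of Zfp36 were thus divided by the same length as in TPM, and its place in the order is uncertain. In untreated cells the order was Zfp36l2 (147 ± 19.5, mean ± SD, n = 3), Zfp36l1 (141 ± 3.09), Elavl1 (45.8 ± 4.64), Zfp36 (33.9 ± 2.25), Rc3h2 (27.9 ± 3.17), Rc3h1 (20.7 ± 1.15), Zc3h12a (11.3 ± 0.892) and Arid5a (7.84 ± 0.215). The first 2 overlapped, and the other neighbours did not. Zc3h12a was 7th of 8 there and came after Zfp36l1 and Zfp36l2 with IL-33 (61.1 ± 1.47). It was first with IL-33 and IL-17A (224 ± 6.10, above Zfp36l1 at 198 ± 9.66) and in the triple combination (250 ± 17.6, above Zfp36l1 at 225 ± 6.06), without overlap in either. Arid5a was the lowest in all 5 groups.

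Of 4 tested genes for RNases related to Regnase-1, 1 was called lower and none higher with IL-33 (8.28% and 5.92% of all genes). With IL-17A added to IL-33 limma called none (9.76% of all genes), and 1 had an unadjusted p under 0.05. In the triple combination against untreated 1 was called higher and 2 lower (12.6% and 30.1% of all genes). So few genes cannot be told from those shares. Zc3h12d (Regnase-4) fell by 0.30 on the log2 scale with IL-33 (adjusted p = 0.011). It fell by 0.57 in the triple combination against untreated (adjusted p = 2.4e-05), where N4bp1 rose by 0.26 (adjusted p = 0.0025) and Khnyn fell by 0.36 (adjusted p = 0.00042). Among 24 other AU-rich element and UTR binding proteins, 1 was called with IL-33, where 14.2% of all genes were, namely Cpeb2, which fell by 0.23 (adjusted p = 0.023). With IL-13 added to IL-33, 4 of the 24 were called higher and 9 lower (10% and 22.4% of all genes), and in the triple combination against untreated 1 higher and 10 lower (12.6% and 30.1% of all genes).

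Genes of the general decay machinery are given beside the share of all genes called with IL-33, 5.92% higher and 8.28% lower. Of 22 genes for CCR4-NOT, PAN and BTG/TOB deadenylation, 2 were called higher and none lower. These were Btg1 (0.63 ± 0.06, adjusted p = 1.3e-05) and Tob1 (0.20 ± 0.06, adjusted p = 0.044), whose products link the deadenylase to target mRNAs. Of 20 genes for decapping and 5′ decay, limma called none with IL-33, and 4 of them had an unadjusted p under 0.05. With IL-17A added to IL-33 limma again called none, where 9.76% of all genes were called, and 5 had an unadjusted p under 0.05. Of 22 exosome and nonsense-mediated decay genes, none was called higher and 3 lower with IL-33, among them Exosc9 (-0.25 ± 0.04, adjusted p = 0.0023). In the triple combination against untreated, 7 of the 20 decapping and 5′ decay genes were called lower and 2 higher (30.1% and 12.6% of all genes). The exonuclease gene Xrn1 fell by 0.34 (adjusted p = 0.0033) and the decapping enzyme gene Dcp2 by 0.43 (adjusted p = 0.0022) there, on a background of 30.1% of all genes called lower.

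Of 27 genes for kinases, phosphatases and adaptors that act on these regulators, 3 were called higher and 1 lower with IL-33, a share near that of all genes (14.2%). With IL-17A added to IL-33, 3 were called higher and 3 lower (3.54% and 6.22% of all genes), and in the triple combination against untreated 6 higher and 7 lower (12.6% and 30.1%). With IL-33 against untreated, the adaptor gene Traf3ip2, which encodes Act1, rose by 0.40 ± 0.06 (adjusted p = 0.00036). In the same comparison Ikbke rose by 0.54 ± 0.06 (adjusted p = 4.5e-05) and Map2k3, a kinase gene upstream of p38, by 0.20 ± 0.06 (adjusted p = 0.043). Dusp1, the phosphatase gene that limits p38 activity, fell by 0.55 with IL-33 against untreated (adjusted p = 8.1e-05). Its mean went from 21.4 ± 0.687 TPM (SD, n = 3) in untreated cells to 14.4 ± 0.979 with IL-33, 10.5 ± 0.651 with IL-33 and IL-17A, and 9.83 ± 0.723 in the triple combination. IL-17A added to IL-33 raised Mapkapk2, the gene of MK2, by 0.36 ± 0.08 (adjusted p = 0.016).

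**Figure D4:**
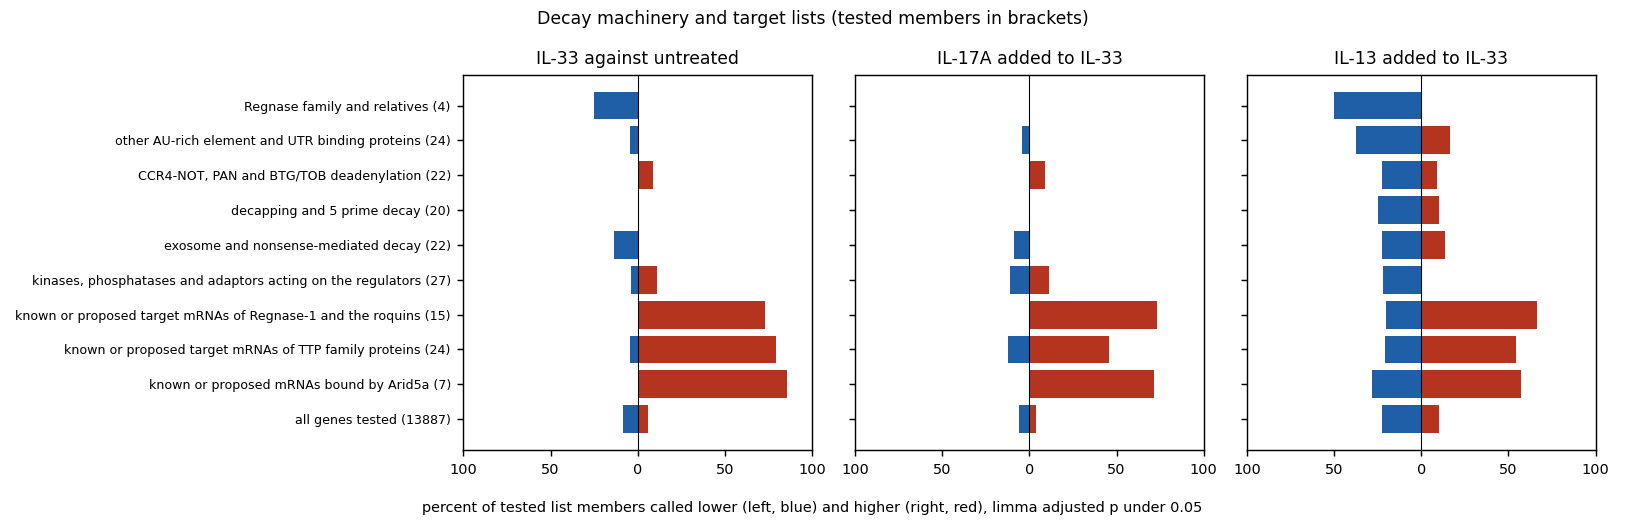
Percent of the tested genes of each list called higher (red, to the right) and lower (blue, to the left) in 3 comparisons, with the number tested in brackets and all 13887 genes in the bottom bar. The 3 lists of target mRNAs extend far to the right with IL-33 (11 of 15, 19 of 24 and 6 of 7 genes higher), beside 5.92% of all genes.

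Most transcripts that the regulators are known or proposed to act on rose with IL-33. Of 15 tested target mRNAs of Regnase-1 and the roquins, which include Zc3h12a itself, 11 were called higher and none lower with IL-33, where 5.92% of all genes were called higher. The median log2 change of the list was 2.10. A further 11 calls higher and none lower came with IL-17A added to IL-33 (3.54% of all genes higher). Calls with IL-13 added instead were 10 higher and 3 lower (10% and 22.4% of all genes). Of 24 tested TTP family targets, 19 were higher and 1 lower with IL-33, with a list median of 0.73. Of 7 tested mRNAs bound by Arid5a, 6 were higher and none lower. The lists overlap, since 9 genes stand in both of the first 2 and 5 of the 10 listed for Arid5a stand in the first, and they hold cytokine genes that were known to respond in these libraries.

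Il6, the cytokine mRNA on which Regnase-1, roquins, TTP and Arid5a have all been studied, was at 46.5 ± 2.19 TPM (SD, n = 3) in untreated cells. It was at 306 ± 31.7 with IL-33, 732 ± 39.1 with IL-17A added, 400 ± 11.5 with IL-13 added and 846 ± 77.5 in the triple combination. Nfkbiz was at 14.6 ± 0.0601 TPM in untreated cells, 49.1 ± 1.68 with IL-33, 157 ± 6.09 with IL-17A added, 42.7 ± 0.794 with IL-13 added and 130 ± 3.24 in the triple combination. Zc3h12a and Il6 thus ran through the same order of groups, whereas IL-13 lowered Nfkbiz under IL-33 (-0.20 ± 0.04, adjusted p = 0.0022) where it raised Zc3h12a. Tnf, the classical TTP target, was not called with IL-33 (0.00 ± 0.19) and fell with IL-13 added to IL-33 (-1.24 ± 0.19, adjusted p = 0.00051). The interaction term was not called for Il6, Nfkbiz, Cxcl1, Ptgs2, Ier3, Csf3 or Tnf. It was called for 2 other target mRNAs, Ccl2 (-0.67 ± 0.11, adjusted p = 0.027) and Lif (-0.78 ± 0.09, adjusted p = 0.0032), where 0.180% of all genes were called lower. With a term for the low mitochondrial set limma called only 1 of 13887 genes lower in the interaction, so these 2 calls do not both hold there.

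**Figure D5:**
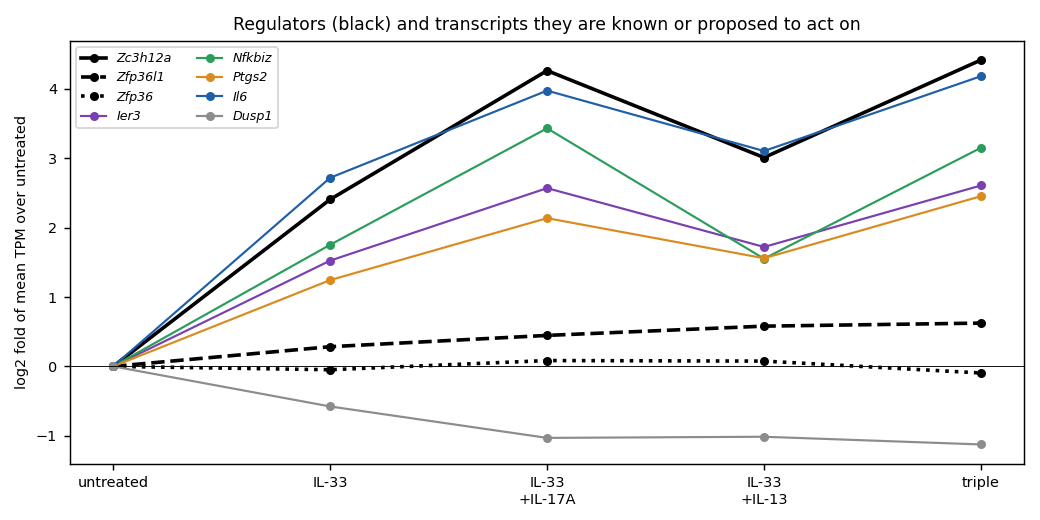
Log2 fold of the group mean TPM over the untreated mean (vertical axis) for 3 regulators in black (Zc3h12a solid, Zfp36l1 dashed, Zfp36 dotted) and for 5 transcripts they are known or proposed to act on, in 5 groups, where lines only join the means of a gene. Zc3h12a follows Il6 closely (19.2-fold and 15.7-fold with IL-33 and IL-17A), and Dusp1 falls.

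The genes whose levels were most like each regulator were ranked by Pearson r on log2(TPM + 1) over the 15 libraries, which share the treatment groups, so r describes the groups as much as the libraries. For Zc3h12a the top gene was Ier3 (r = 0.998), an immediate early gene and a known target of both Regnase-1 and TTP, with 4 TATTTAT matches in its 3′ UTR. It was followed by 3425401B19Rik (r = 0.994) and Rnd1 (r = 0.993). Ier3 was at 567 ± 15.6 TPM in untreated cells and at 3366 ± 144 with IL-33 and IL-17A. For Zfp36l1 the top gene was Socs3 (r = 0.983), an inhibitor of cytokine receptor signalling, followed by Adora2b and Slc7a2 (both r = 0.982). For Zfp36l2 it was Nxph4 (r = 0.981), for Rc3h2 Tbl1xr1 (r = 0.964), for Arid5a Bin1 (r = 0.954) and for Rc3h1 Pde3b (r = 0.946). Elavl1 had no gene above r = 0.877 (Nucks1).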

How the data were processed

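RNA-seq of 15 libraries was deposited as TPM per gene. Alignment used HISAT2 to build mm10, per the submitters' processing notes. Not given in the sources used here are versions, the counter, and its strand and multi-mapping rules. In the deposited TPM, value times gene span is a whole number of reads for 90.5% to 91.6% of the low values (under 20 reads, tolerance 0.05), which gives 10554600 to 15123300 reads per library. So TPM here divides by the span of the gene with introns. TPM does not measure total RNA per cell.

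limma 3.58.1 (R 4.3.3), with trend and robust options, was fitted to log2(TPM + 1) with a mean per group over all libraries. A gene was tested if 3 or more libraries had it at 1 TPM or above (13887 tested, 4191 left out), with Benjamini-Hochberg adjustment in each of 7 comparisons. The script was tested on simulated data. Groups come from the labels' treatment, and replicates were numbered in accession order, so numbers pair no libraries. The members, lists, tests and naming rule were chosen with earlier results of these data known. Named were all 8 members, up to 4 called genes of each list with the largest change per comparison, 8 fixed cytokine response genes, the 3 genes most like each called member, and the most abundant fibroblast and macrophage markers. Alternatives were another pseudocount (0.1 TPM), no filter or one at 5 TPM, median-ratio scaling, only the groups compared, no trend or robust option, recovered reads scaled to library size, a term for libraries with a low mitochondrial share, each library left out and, added after seeing the data, only libraries outside that set. Files were joined with Python 3.11.15 and pandas 2.3.3, and of the 18078 genes 18062 were found in GENCODE vM21. Protein sequences of the members were not used here.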

Additional observations from a re-analysis of the deposited data

Results flagged for a closer look

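For 2 regulators the effect of IL-17A differed between cells with and without IL-13, by a test of the difference itself (the interaction term in limma). For Zc3h12a the effect of IL-17A with IL-13 minus that without was -0.45 on the log2 scale (adjusted p = 0.029), from a rise of 1.40 with IL-13 against 1.84 without. For Rc3h2 the interaction was 0.86 (adjusted p = 0.016), with all 3 libraries lower with IL-17A under IL-33 alone and all 3 higher under IL-33 and IL-13. With a term for the low mitochondrial set both lost their call, at -0.37 for Zc3h12a (adjusted p = 0.64) and 0.61 for Rc3h2 (adjusted p = 0.59). The Zc3h12a call was also lost when any of 10 of the 12 libraries was left out (-0.41 to -0.47), and the Rc3h2 call for 4 of them (0.80 to 0.86).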

How the results depend on the processing

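Of 24 called changes of single regulators, 10 kept their call and direction in all alternatives tried: Zc3h12a in 5 comparisons, Zfp36l1 with IL-33, with IL-13 added to IL-33 and in the triple combination, and Arid5a with IL-33 and in the triple combination. The other 14 kept their direction and lost their call in at least 1 alternative, with the values given beside each in the report. The number of regulators called moved as follows, with the share of all genes called in brackets. For IL-17A added to IL-33 it went from 4 (9.76%) to 2 when only the groups compared were fitted (3.74%). For IL-13 added to IL-33 it went from 4 (32.4%) to 2 with the term for the low mitochondrial set (10.2%). For IL-17A added to IL-33 and IL-13 it went from 1 (7.45%) to 2 on recovered reads (11.9%). For IL-13 added to IL-33 and IL-17A it went from 4 (15.8%) to 1 when only the groups compared were fitted (5.67%). For the interaction it went from 2 (0.338%) to 0 with the set's term (0.0144%; limma, 3 at an unadjusted p under 0.05). Fewer libraries entered where only the groups compared were fitted, and for the others the cause was not tested. Counts with only libraries outside the set are not given for comparisons with the IL-33 and IL-17A group, where replicate 1 alone remains. With 1 library left out, the counts ranged from 2 to 4 for IL-17A added to IL-33, 3 to 4 for IL-13 added to IL-33, 1 to 2 for IL-17A added to IL-33 and IL-13, 2 to 5 for IL-13 added to IL-33 and IL-17A, 5 to 6 for the triple combination, 0 to 5 for the interaction (0.151% to 21.9% of all genes), and stayed at 3 for IL-33.

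Changes that were not called turned sign in places. With median-ratio scaling the values became 0.041 for Elavl1, 0.0059 for Zfp36 and 0.038 for Zfp36l2 with IL-33, 0.054 for Zfp36l2 with IL-17A added to IL-33, 0.085 for Elavl1 with IL-13 added to IL-33 and 0.029 for Zfp36 in the triple combination. On recovered reads they were 0.037 for Elavl1 and 0.032 for Zfp36l2 with IL-33, 0.052 for Zfp36l2 with IL-17A added, 0.080 for Elavl1 with IL-13 added and 0.022 for Zfp36 in the triple combination. With the term for the low mitochondrial set they were 0.076 for Elavl1 and -0.070 for Zfp36 with IL-13 added to IL-33, -0.014 for Rc3h1 with IL-17A added to IL-33 and IL-13, and 0.032 for Arid5a and 0.054 for Zfp36l2 in the interaction. With 1 library left out, the ranges with a change of sign were, for IL-33, -0.086 to 0.045 (Elavl1), -0.10 to 0.041 (Zfp36) and -0.13 to 0.081 (Zfp36l2). They were -0.11 to 0.062 for Zfp36l2 with IL-17A added to IL-33, -0.023 to 0.014 for Elavl1 with IL-13 added to IL-33, and for Rc3h1 -0.010 to 0.15 with IL-17A added to IL-33 and IL-13 and -0.027 to 0.14 with IL-13 added to IL-33 and IL-17A. In the triple combination they were -0.010 to 0.12 for Elavl1 and -0.22 to 0.0033 for Zfp36, and in the interaction -0.056 to 0.055 for Arid5a. The cause of these changes of sign was not tested.

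No paired analysis was possible because the labels give no replicate numbers. A fit with only libraries outside the low mitochondrial set was not run for IL-13 added to IL-33, for IL-17A added to IL-33 and IL-13, or for the interaction, since no IL-33 and IL-13 library lies outside it. Depth limits Arid5a and untreated Zc3h12a most, with as few as 165 and 110 reads in a library.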
